A study of Homo sapiens with 6 samples.

Results

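To ask how MYC was distributed over noncoding RNA genes in ONS76 cells, MYC peaks were examined at the starts of MIR17HG, GAS5, SNHG1, DANCR, NEAT1 and MALAT1. Peaks were chosen by position alone, as those with a summit within 5 kb of the gene's start in hg19. The starts were chromosome 13 position 92000074 for MIR17HG, chromosome 1 position 173837220 for GAS5, chromosome 11 position 62623484 for SNHG1, chromosome 4 position 53578614 for DANCR, chromosome 11 position 65190269 for NEAT1 and chromosome 11 position 65265233 for MALAT1. The start of SNHG1 was taken as shared with SLC3A2, which is transcribed from the opposite strand. A RefSeq start of SLC3A2 lies 224 bp from that of SNHG1 (GRCh38.p14). The rule took 12 of 24899 peaks in MYC replicate 1, 8 of 16809 in replicate 2 and 10 of 17298 in replicate 3. Overlapping peaks of different replicates (1 bp or more in common) were treated as a single place, and 12 of the 27801 places so formed lay at these 6 starts.

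ONS76 is an established human medulloblastoma cell line, and the labels give the cells of all libraries an inducible SOX2 genotype. All libraries came from these cells: 3 were immunoprecipitated with the MYC antibody Y69 and 3 with normal IgG. The study did not carry out this ChIP with SOX2 elevated. Per its methods, separate immunoprecipitations of a single batch of chromatin were combined; the sources used here do not say whether replicates were separate cultures, so the spread between them may be technical. Peak lists of the 3 MYC libraries were analysed, with a genome-wide background level of 7.79, 5.84 and 4.76 fragments per site in replicates 1, 2 and 3, so replicate 1 was the most deeply sampled and replicate 3 the least.

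MYC binds DNA as a heterodimer with MAX and prefers the E-box CACGTG and close variants of it, mostly near promoters. MIR17HG is the host of the miR-17-92 cluster, a polycistron of oncogenic microRNAs and a well-known MYC target. GAS5, SNHG1 and DANCR are host genes whose introns hold small nucleolar RNAs, which guide the modification of ribosomal RNA, while NEAT1 builds paraspeckles and MALAT1 is an abundant RNA of nuclear speckles.

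RefSeq (GRCh38.p14) lists 6 microRNAs within MIR17HG, 11 small nucleolar RNAs within GAS5, 9 within SNHG1, and 1 within DANCR together with the microRNA MIR4449. The label of host gene thus applies foremost to these 4 genes, as NEAT1 held 1 microRNA, MIR612, and MALAT1 held the small cytoplasmic RNA MASCRNA. The microRNAs of MIR17HG are shown because they are the products of the gene. The arm usually taken as the mature product is given for each, 5′ to 3′, with the seed (bases 2 to 8) in capitals. The miR-17 and miR-20a sequences share a seed, as do miR-19a and miR-19b, while the seeds of miR-18a and miR-92a were each found in 1 arm of the cluster.
hsa-miR-17-5p: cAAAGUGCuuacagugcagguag
hsa-miR-20a-5p: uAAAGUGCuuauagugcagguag
hsa-miR-18a-5p: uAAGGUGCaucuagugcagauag
hsa-miR-19a-3p: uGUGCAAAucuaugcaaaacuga
hsa-miR-19b-3p: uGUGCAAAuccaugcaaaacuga
hsa-miR-92a-3p: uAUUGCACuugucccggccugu

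RefSeq promoter windows ran from 250 bases before to 50 after an annotated start in GRCh38.p14. Such windows were available for 5 of the 6 genes, all but NEAT1 (6 windows, since MALAT1 had 2). They were searched on both strands for CACGTG, for the variant CACGCG and for any CANNTG, which includes CACGTG. None of the 6 windows held CACGTG, which was present in 7.26% of all 35116 windows. CACGCG was present in 2 of the 6, that of SNHG1 and the first of MALAT1, against 11.4% of all windows. CANNTG was present in 5 of the 6 windows, all but that of DANCR, against 68.7%. The absence of these letters refers to these windows only, and since the peaks are in hg19, no summit was placed on a base of them. The annotated starts of the windows were not matched to the hg19 starts used for the peaks. A window can therefore belong to another start of its gene. The windows differed in composition. That of MIR17HG had 73.0% G and C with 42 CpG dinucleotides and that of GAS5 37.7% with 5, beside medians of 58.7% and 14 over all windows.

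The windows of SNHG1 (GRCh38.p14 chr11:62855836-62856135, minus strand) and MALAT1 (chr11:65497488-65497787, plus strand) are shown for the letters they hold, and that of MIR17HG (chr13:91347437-91347736, plus strand) because the peak at its start was the weaker of its pair. Capitals mark CACGCG, read on the other strand as CGCGTG.
SNHG1: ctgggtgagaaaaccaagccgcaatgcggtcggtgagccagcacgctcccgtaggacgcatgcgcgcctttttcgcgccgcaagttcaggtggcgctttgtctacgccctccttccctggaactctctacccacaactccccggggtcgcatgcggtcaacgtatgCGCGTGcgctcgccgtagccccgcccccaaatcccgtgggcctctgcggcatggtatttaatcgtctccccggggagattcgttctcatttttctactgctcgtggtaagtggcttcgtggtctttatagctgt
MALAT1: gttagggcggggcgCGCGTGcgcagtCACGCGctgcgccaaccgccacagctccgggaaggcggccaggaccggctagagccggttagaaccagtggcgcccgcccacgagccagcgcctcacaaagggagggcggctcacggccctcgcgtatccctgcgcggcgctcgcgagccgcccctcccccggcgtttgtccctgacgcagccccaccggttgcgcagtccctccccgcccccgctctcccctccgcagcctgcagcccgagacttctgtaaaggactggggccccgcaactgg
MIR17HG: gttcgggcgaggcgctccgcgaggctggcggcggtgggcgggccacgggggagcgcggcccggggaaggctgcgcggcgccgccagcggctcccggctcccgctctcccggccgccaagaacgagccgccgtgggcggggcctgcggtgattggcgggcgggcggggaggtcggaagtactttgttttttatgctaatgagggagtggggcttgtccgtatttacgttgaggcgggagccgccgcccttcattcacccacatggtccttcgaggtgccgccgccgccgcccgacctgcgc

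In SNHG1 the letters began 84 bases before the RefSeq start, at chr11:62855964-62855969. The same 6 bases lay 145 bases before a RefSeq start of SLC3A2, which encodes the heavy chain of several amino acid transporters. In MALAT1 the letters began 236 and 224 bases before the start. In the same RefSeq set, ZBTB37, a zinc finger gene on the other strand, starts within 5 kb of GAS5. The window of ZBTB37 held CACGTG, 192 bases before the ZBTB37 start at chr1:173868188-173868193 (GRCh38.p14, plus strand). The window of GAS5 lies at chr1:173868996-173869295 (minus strand). By these RefSeq starts the CACGTG thus lies downstream of the GAS5 start and outside the GAS5 window. The stretch around it is shown with the E-box in capitals.
ZBTB37: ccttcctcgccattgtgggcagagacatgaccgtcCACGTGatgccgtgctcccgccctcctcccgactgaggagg

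All 6 starts had a MYC peak in each of the 3 lists. The share of all gene starts with such peaks was not computed, so this count has no background beside it. Of the 12 places, 8 had peaks from all 3 replicates, against 45.0% of all places, and 9 had peaks from at least 2, against 62.4%. The other 3 were called in replicate 1 alone. GAS5 and MALAT1 had 1 place each, MIR17HG, SNHG1 and DANCR had 2, and NEAT1 had 4. At each gene the strongest place, by geometric mean fold enrichment, was among the 8 found in all 3 replicates. MIR17HG and NEAT1 were the genes with a further place in all 3.

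**Figure D1:**
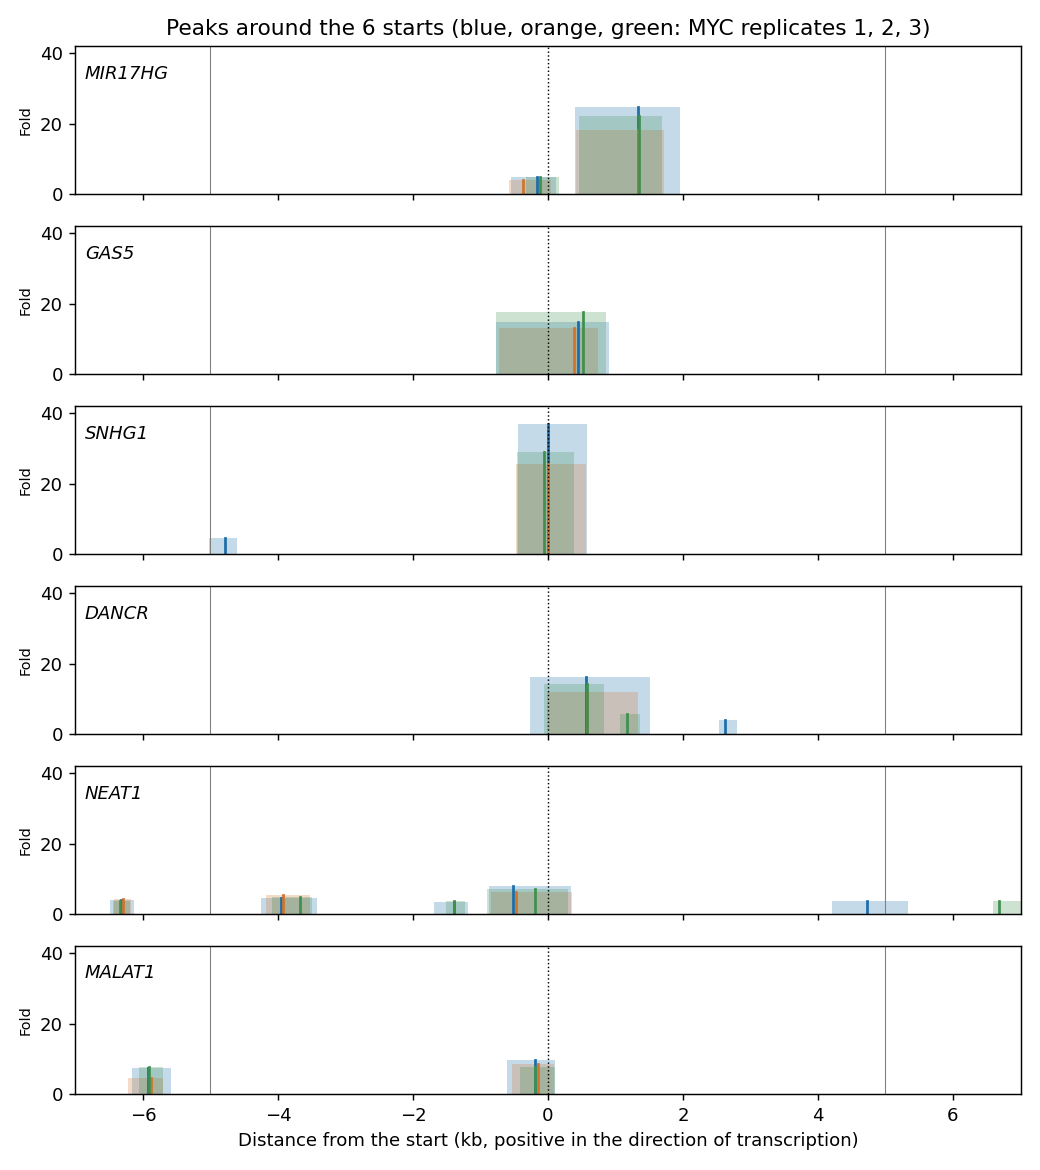
Peaks within 7 kb of each start, with distance from the start in kb on the x axis (positive in the direction of transcription) and fold enrichment at the summit on the y axis. Each shaded box spans 1 peak, its height is that peak's fold enrichment, the line marks the summit and the grey lines mark 5 kb. The tall boxes of MIR17HG lie downstream of the start, those of SNHG1 on it, and NEAT1 has several low boxes.

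By the strongest place of each gene, the 4 host genes carried the higher enrichment. This order depends on that choice, since the place over the start of MIR17HG was below the strongest places of MALAT1 and NEAT1 in each replicate. SNHG1 was highest. Its fold enrichment, the ratio of summit fragments to local background with 1 added to each, was 36.9, 25.6 and 28.8 in replicates 1, 2 and 3 (mean 30.4 ± 5.84, SD, n = 3). The summits held 338, 174 and 165 fragments, with exact 95% Poisson intervals of 303 to 376, 149 to 202 and 141 to 192. Intervals given here cover counting error only. The place spanned chr11:62622912-62623951 in hg19, and the summits lay 2 bp upstream, 2 bp downstream and 54 bp upstream of the start in the direction of SNHG1. Peaks at a start that SNHG1 was taken to share with SLC3A2 cannot be assigned to either gene. The other place at SNHG1, 4790 bp upstream, was called in replicate 1 alone, with a fold enrichment of 4.75 on 41 fragments.

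MIR17HG came next, with a fold enrichment of 24.8, 18.1 and 22.2 in replicates 1, 2 and 3 (mean 21.7 ± 3.37, SD, n = 3) on 217, 123 and 127 fragments. This place, chr13:92000471-92002031 in hg19, was not on the start. Its summits lay 1332, 1331 and 1350 bp downstream, within 19 bp of each other. A separate place over the start itself was also called in all 3 replicates. It was weaker in each, with a fold enrichment of 5.01, 4.09 and 4.86 (mean 4.65 ± 0.492, SD, n = 3) and summits 156, 365 and 112 bp upstream. The downstream place thus exceeded the one at the start in 3 of 3 replicates, with no overlap of their values.

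GAS5, a growth-arrest-associated noncoding RNA, had a single broad place at chr1:173836318-173837996 (hg19). Fold enrichment was 14.9 in replicate 1, 13.2 in replicate 2 and 17.7 in replicate 3 (mean 15.3 ± 2.27, SD, n = 3), on 209, 108 and 120 fragments. The peaks were 1667, 1478 and 1639 bp wide, wider than 97.5%, 97.9% and 98.7% of the peaks in their lists, and they spanned the start. Their summits lay 441, 393 and 518 bp downstream of it. RefSeq starts of GAS5 and of ZBTB37 on the other strand lie 665 bp apart (GRCh38.p14), less than the width of these peaks, so the place cannot be assigned to either gene. Replicate 3 was the highest of the 3 libraries here, whereas at each of the other 5 genes replicate 1 was. Width was not particular to GAS5. In replicates 1, 2 and 3 the strongest peaks of DANCR were wider than 98.1%, 96.8% and 86.6% of their lists. At MIR17HG these shares were 96.7%, 96.4% and 95.2%, and at NEAT1 91.7%, 95.1% and 94.9%. SNHG1 (86.0%, 91.3% and 84.4%) and MALAT1 (70.4%, 70.5% and 60.0%) were lower.

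DANCR, a noncoding RNA named for restraining differentiation, had a fold enrichment of 16.2, 11.8 and 14.2 (mean 14.1 ± 2.16, SD, n = 3), on 141, 80 and 81 fragments, at chr4:53578350-53580121 in hg19. Summits lay 564, 577 and 574 bp downstream of the start, the tightest of the 6 genes at 13 bp. In replicate 3 the place held 2 peaks, the other with a fold enrichment of 5.73 and a summit 1172 bp downstream, while in replicates 1 and 2 a single peak of 1772 and 1336 bp ran over both positions. A peak 2623 bp downstream was called in replicate 1 alone, with a fold enrichment of 4.02.

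The nuclear RNA genes were lower. At MALAT1 fold enrichment was 9.80, 8.63 and 7.64 in replicates 1, 2 and 3 (mean 8.69 ± 1.08, SD, n = 3) on 99, 58 and 43 fragments, at chr11:65264619-65265341 in hg19. Its summits lay 195, 151 and 188 bp upstream of the start. MALAT1 was the 1 gene of the 6 at which replicate 3 was below replicate 2.

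At NEAT1 the strongest place, chr11:65189371-65190625 in hg19, had a fold enrichment of 7.95, 6.29 and 7.12 (mean 7.12 ± 0.834, SD, n = 3) on 73, 42 and 40 fragments. Its summits, 521, 473 and 192 bp upstream, were spread over 329 bp, the widest of the 6 genes. Signal at NEAT1 was divided among further places. The one about 4 kb upstream was called in all 3 replicates, with summits 3962, 3929 and 3671 bp before the start and a fold enrichment of 4.55, 5.41 and 4.86. Another, 1388 and 1390 bp upstream, was called in replicates 1 and 3 with a fold enrichment of 3.48 and 3.82, and one 4733 bp downstream in replicate 1 alone with 3.83.

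**Figure D2:**
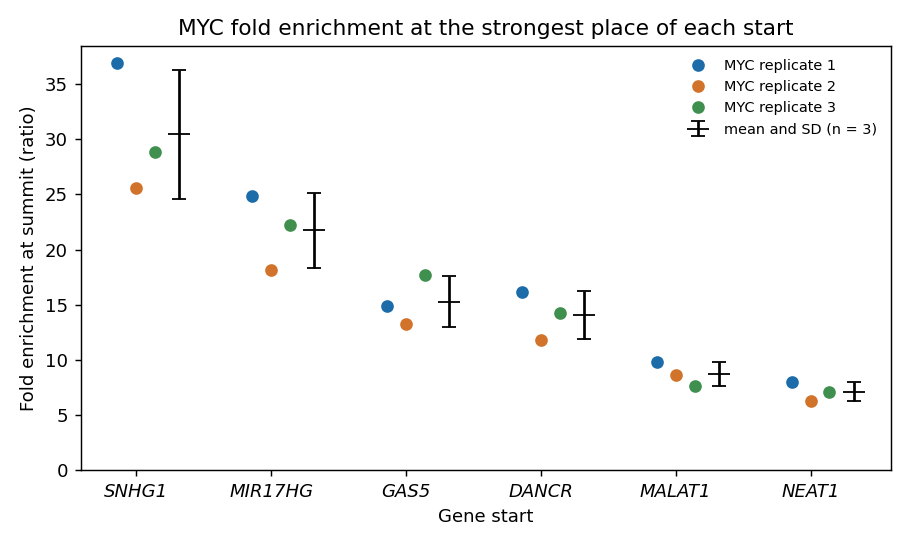
Fold enrichment at the strongest place of each start (y axis, ratio) for the 6 genes (x axis), with 1 point for each MYC replicate and the mean and SD (n = 3) beside them. SNHG1 and MIR17HG stand above the rest, GAS5 and DANCR overlap, and MALAT1 and NEAT1 are lowest.

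The order of the genes was then compared within each replicate, since the lists were not scaled to each other. For 14 of the 15 pairs of genes the order was constant over the replicates. The exception was GAS5 and DANCR, where GAS5 was higher in 2 of 3 replicates and DANCR in replicate 1. Among the 5 pairs of neighbours in the order, 3 had ranges that did not overlap over the replicates, namely SNHG1 above MIR17HG by 1.40 times in the mean, MIR17HG above GAS5 by 1.42 times and DANCR above MALAT1 by 1.62 times. MALAT1 was above NEAT1 by 1.22 times in the mean and in each replicate, but their ranges overlapped (with nothing added to fragments and background they did not, at 9.04 to 10.8 against 7.19 to 8.79). Such ranges pool lists that were not scaled to each other, so their overlap also reflects differences between libraries. GAS5 and DANCR differed by 1.09 times in the mean, less than the SD of either. With 3 replicates the smallest p of a two-sided exact sign test is 0.25, so this test could not call the order of any pair. By strongest places, the lowest of the 4 host genes was above the higher of the nuclear RNA genes in every replicate, at 14.9 against 9.80, 11.8 against 8.63 and 14.2 against 7.64. With the place over its start, MIR17HG was instead the lowest of the 6, at a mean of 4.65.

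Counting error was set beside these differences with nothing added to fragments or background. With exact 95% Poisson intervals of the summit fragments, SNHG1 and MIR17HG had separate intervals in 2 of 3 replicates, MIR17HG and GAS5 in 1, GAS5 and DANCR in 0, DANCR and MALAT1 in 2, and MALAT1 and NEAT1 in 0. The last pair was in a constant order, but its intervals overlapped within every library.

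The strength of each gene was set against all peaks of its list, whose median fold enrichment was 4.15, 4.49 and 4.78 in replicates 1, 2 and 3. SNHG1 was above 99.9%, 99.7% and 99.7% of peaks and MIR17HG above 99.6%, 98.9% and 99.3%. GAS5 was above 97.6%, 96.8% and 98.5%, and DANCR above 98.2%, 95.5% and 96.8%. MALAT1 was above 92.02%, 89.1% and 82.2% and NEAT1 above 86.6%, 75.9% and 79.02%. By its strongest place, each of the 6 was above the median of the list in each replicate. Taking the strongest place of a gene favours a high rank. Among the 12499 places found in all 3 replicates, ordered by geometric mean fold enrichment, SNHG1 ranked 29, MIR17HG 122, GAS5 413, DANCR 551, MALAT1 2133 and NEAT1 3468. The weaker place over the start of MIR17HG was above 33.2% of these places, and the one about 4 kb upstream of NEAT1 above 40.3%.

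**Figure D3:**
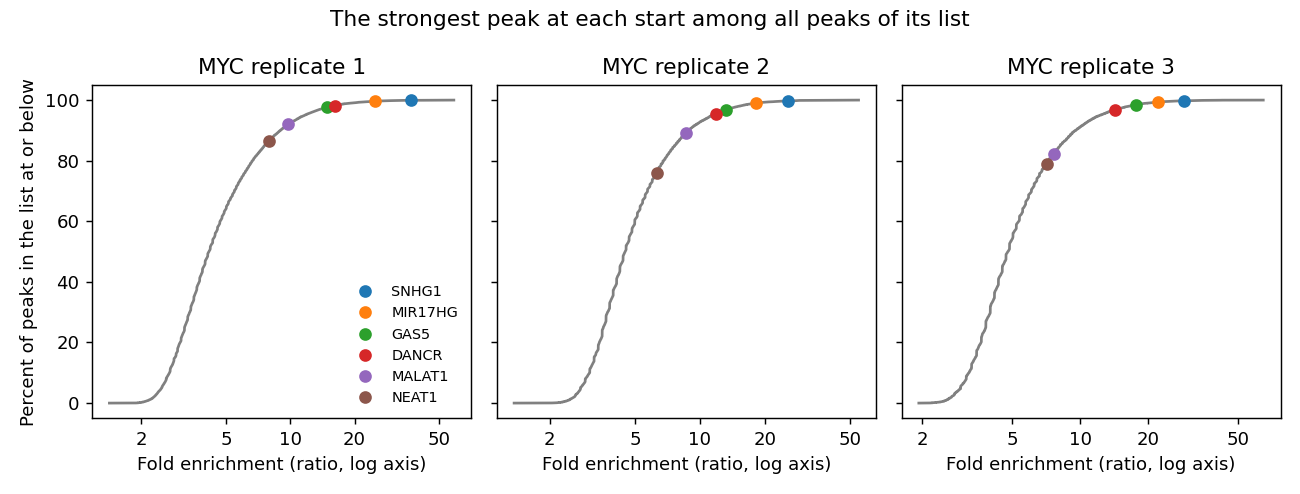
Cumulative share of peaks (y axis, percent) by fold enrichment (x axis, log scale) in each MYC list, with the strongest peak at each of the 6 starts marked. SNHG1 and MIR17HG sit at the top end of the curve in all 3 lists, and NEAT1 lies at 86.6%, 75.9% and 79.02%.

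The replicates differed in the same way at most of the genes. Over all places found in 3 replicates replicate 1 exceeded replicate 2 by 1.14 times in fold enrichment at the median place, and replicate 3 exceeded replicate 2 by 1.08 times. At SNHG1 these ratios were 1.44 and 1.13, at MIR17HG 1.37 and 1.23, at DANCR 1.36 and 1.20, and at NEAT1 1.27 and 1.13. At GAS5 they were 1.13 and 1.34, so that replicate 3 moved further from replicate 2 than replicate 1 did. At MALAT1 the first was 1.14, but the second was 0.886. The middle 50% of all places lay between 0.959 and 1.34 for the first ratio and between 0.939 and 1.24 for the second, so SNHG1, MIR17HG and DANCR were above that range for the first, GAS5 above and MALAT1 below it for the second.

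Fold enrichment divides by the local background that the peak caller estimated at each site, and this background differed between the genes. At MIR17HG and DANCR it was at the genome-wide level in all 3 replicates, as was the median over all peaks of chromosomes 13 and 4. At GAS5 it was 1.68, 1.24 and 1.23 times that level, beside a median of 1.34, 1.19 and 1.21 over all peaks of chromosome 1. SNHG1, MALAT1 and NEAT1 were above the genome-wide level in replicate 1 only, at 1.05, 1.18 and 1.07, below the medians of 1.23, 1.09 and 1.10 over all peaks of chromosome 11 in replicates 1, 2 and 3. Of the 6 strongest peaks, 2, 5 and 5 were at the genome-wide level in replicates 1, 2 and 3, against 28.9%, 40.4% and 40.0% of all peaks. The part of the chromosome in the value at GAS5 was not tested.

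With the genome-wide level as the denominator, and nothing added, GAS5 stood at 26.8, 18.5 and 25.2 (mean 23.5 ± 4.43, SD, n = 3), beside a mean of 17.2 over the local background. DANCR was 18.1, 13.7 and 17.03 on this scale, so GAS5 was then above DANCR in 3 of 3 replicates, with ranges that did not overlap. GAS5 also came close to MIR17HG, at 27.9, 21.1 and 26.7, and their intervals overlapped in every replicate. All 15 pairs of genes had a constant order on this scale.

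**Figure D4:**
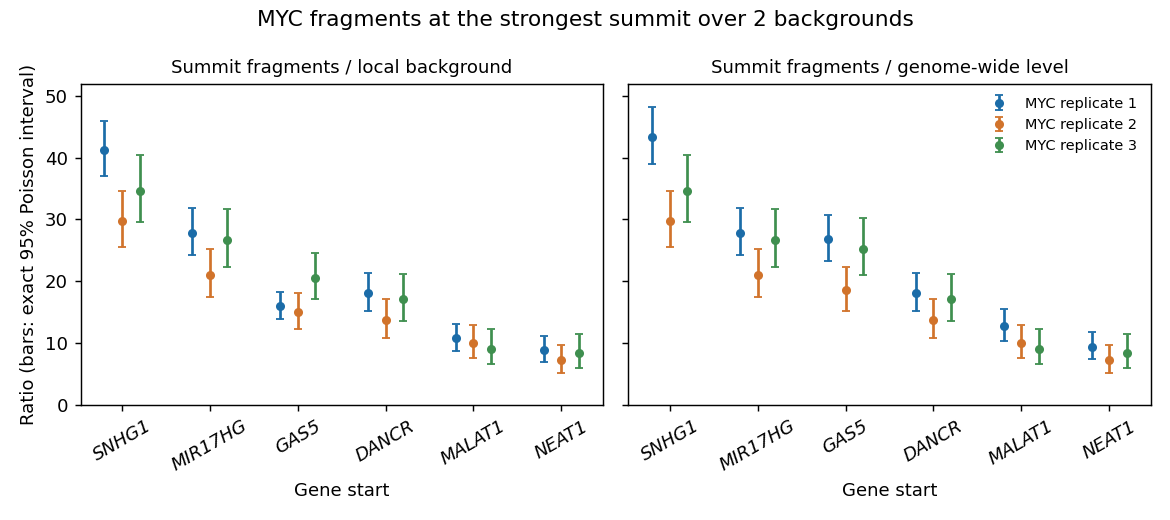
Summit fragments divided by the local background (left) or by the genome-wide level (right) on the y axis for the 6 genes on the x axis, 1 point for each MYC replicate with its exact 95% Poisson interval. GAS5 lies level with DANCR on the left, at 16.0, 14.9 and 20.6, and near MIR17HG on the right, at 26.8, 18.5 and 25.2.

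Beyond the 5 kb windows, the genes differed in how many MYC places surrounded them. The density of places elsewhere on their chromosomes was not computed, so the counts are not set against it. Within 100 kb, and leaving out the 12 places above, no further peak was called at MIR17HG in any replicate. GAS5 had 1 further place, 43.2 kb downstream in the direction of GAS5, and DANCR had 2, of which the one 9.98 kb downstream was in all 3 replicates with a mean fold enrichment of 3.17 ± 0.217 (SD, n = 3). Around SNHG1 there were 9 places, 8 of them in all 3 replicates. The strongest, 16.5 kb beyond the start in the direction of SNHG1, had a fold enrichment of 16.9, 16.5 and 18.1 (mean 17.2 ± 0.805, SD, n = 3), and at none of the 9 was the geometric mean above that at the start.

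NEAT1 and MALAT1 are neighbours, with starts 74964 bp apart. Around NEAT1 there were 14 further places, 7 of them in all 3 replicates, and around MALAT1 16, of which 9 were in all 3. The windows of these genes share places. Between their 5 kb windows lay 7 places, 3 in all 3 replicates and 4 in a single one. NEAT1 was the only one of the 6 genes with a stronger place in its surroundings that was found in all 3 replicates, 40.4 kb upstream, with a fold enrichment of 12.4, 11.1 and 10.7 (mean 11.4 ± 0.874, SD, n = 3). No overlap existed between these values and those at the NEAT1 start.

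The place just outside the 5 kb limit lay at MALAT1, with summits 5931, 5877 and 5914 bp upstream and a fold enrichment of 7.44, 4.68 and 7.82 (mean 6.64 ± 1.71, SD, n = 3). In replicate 3 it was above the 7.64 of the MALAT1 start, and in replicates 1 and 2 it was below. Just inside the limit were the peaks 4790 bp upstream of SNHG1 and 4733 bp downstream of NEAT1, both in replicate 1 alone. A place 6330, 6291 and 6336 bp upstream of NEAT1, with a fold enrichment of 4.15, 4.40 and 3.78, also fell outside.

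**Figure D5:**
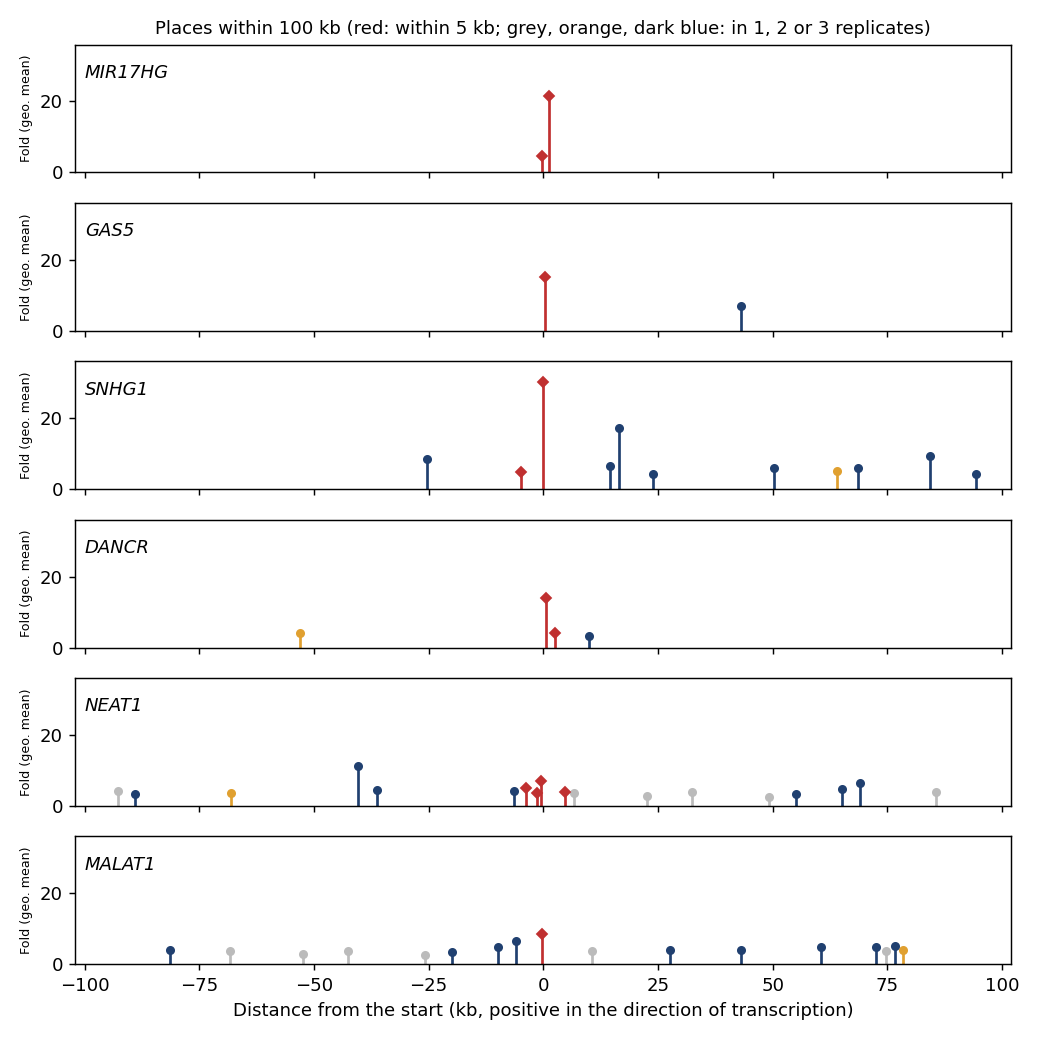
Places within 100 kb of each start, with distance in kb on the x axis (positive in the direction of transcription) and geometric mean fold enrichment on the y axis. Red diamonds are the 12 places within 5 kb, and circles are other places found in 1 (grey), 2 (orange) or 3 replicates (dark blue). MIR17HG stands alone, and SNHG1 has a second strong place 16.5 kb downstream. NEAT1 and MALAT1 lie among many weak places, with a stronger one (11.4) 40.4 kb upstream of NEAT1.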

How the data were processed

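MYC ChIP-seq of ONS76 cells was analysed from 3 deposited peak lists. Per the study's methods, the authors aligned reads to hg19 with Bowtie2 and called peaks in each library with MACS2 at a q-value of 0.05. Not given in the sources used here were versions, the control library and duplicate handling. The deposited lists give each peak a fold enrichment (a ratio), a −log10 p-value, a −log10 q-value and a score; the score was not used. The IgG libraries were not analysed here.

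Starts were taken in hg19, strands from GENCODE and sequences from RefSeq (GRCh38.p14); no position was carried between builds. Summit fragments and local background were recovered from fold and −log10 p-value, with a match within 0.001 for 100% of peaks, and the lowest background of a list was its genome-wide level. The recovery and the merging of peaks were tested on simulated data. Groups and replicate numbers came from the labels. The genes named are the 6 members, SLC3A2, neighbours with a RefSeq start within 5 kb and the microRNAs of MIR17HG. Neighbours were sought from the promoter windows, so none was sought at NEAT1. Members and lists were chosen with earlier results of these data known. Values are means ± SD over replicates; no test across peaks was run. Python 3.11.15 with scipy 1.17.1 was used.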

Additional observations from a re-analysis of the deposited data

How the results depend on the processing

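All 6 starts kept a peak in each list with a window of 1 kb. Windows of 2 and 10 kb, and any base of the peak in place of its summit, take in these same peaks. They could therefore not change this count. Limits of 0.01 and 0.001 on the q-value could not change it either, since the lowest −log10 q-value of the 30 peaks was 5.24. The share over all gene starts was not computed for any of these settings. The number of peaks at the starts moved from 30 to 18 with the 1 kb window, which by construction leaves out the downstream place of MIR17HG. The number of places in at least 2 replicates was 8 to 9 under every merging and when any replicate was left out. The pairs of genes whose order was constant over the replicates of a setting numbered 14 or 15 of 15, a count that does not say whether the order was that reported. With the place nearest to the start in place of the strongest, the mean fold enrichment of MIR17HG was 4.65 rather than 21.7, which turned its order with GAS5, DANCR, MALAT1 and NEAT1. The median relative background of the 6 peaks was 1.02, and 0.936 with the median of each list as base. Places in at least 2 replicates numbered 26 within 100 kb of the starts, 14 within 50 kb and 51 within 250 kb. The promoter windows with E-box letters numbered 0 for CACGTG, 5 for CANNTG and 2 for CACGCG. No paired analysis was possible because the values come from the MYC peak lists alone, although the IgG libraries carry the same replicate numbers. At 27 fragments, as in replicates 2 and 3 at the start of MIR17HG, the exact 95% interval ran from 17.8 to 39.3, so the weak places are the least precise.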
